A study of Homo sapiens with 3 samples.

Results

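Fra-2-only promoter peaks are places where ChIP-seq placed a Fra-2 peak beside the start of a protein-coding gene and no Fra-1 peak touched it. Members were chosen by the called peaks themselves: Fra-2 peaks on chromosomes 1 to 22 that share no base with any Fra-1 peak, and whose centre falls at most 1 kb from a transcription start site (TSS) annotated for a protein-coding transcript. The rule kept 407 of the 13003 Fra-2 peaks, after 2 peaks beside long assembly gaps (a run of N of 1 Mb or more, 1 Mb away or nearer) had been dropped. Absence from the Fra-1 list and closeness to a TSS are therefore what the members were selected on, and neither is a finding.

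All 3 samples of the series (Fra-2 ChIP, Fra-1 ChIP and input DNA) come from MDA-MB-231, a human cell line from a triple-negative breast cancer (basal B in the labels), kept in medium with 10% serum and given no other treatment in the labels. They mention 2 independent replicates per antibody, but each antibody has a single list of peaks here (1 each), and the spread between replicates is unknown for every value given. Peaks come as a start and an end on a grid of 50 bp, without height, score or read depth. How far the threshold of the Fra-1 list or the efficiency of each antibody sets the membership was not tested. All intervals are 95% and, with the tests, cover counting error over peaks only, since peaks of 1 list are not replicates.

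Fra-1 (FOSL1) and Fra-2 (FOSL2) are Fos-family proteins with a basic leucine zipper. They bind as dimers with Jun proteins, forming AP-1, which recognises the palindrome-like element TGACTCA, read as TGAGTCA on the other strand. Dimers of related proteins, such as the CREB and ATF factors and some Jun pairs, prefer the cyclic AMP response element (CRE), TGACGTCA, which has 1 more base in the middle. In breast cancer cells AP-1 is best known for binding enhancers far from genes. Promoters differ from enhancers in their DNA: many lie in CpG islands, stretches rich in G, C and the dinucleotide CpG, and carry sites for general promoter factors such as SP/KLF, ETS, NRF1 and YY1 proteins.

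The sequences below, read from GRCh37 (the assembly behind hg19), show the AP-1 element, which most members hold, and the CRE, which few hold. Each is printed 5′ to 3′ on the strand of its gene, with exon bases left out and the element in capitals. The first set shows 4 of the 6 members that hold a CRE and no AP-1 element within 100 bp of the centre. HECA encodes the human homolog of the fly headcase protein, FRAT1 a GSK3-binding protein of the Wnt pathway, ZC3H4 a zinc-finger protein that curbs non-coding transcription, and RPS29 a protein of the small ribosomal subunit.
HECA (chr6:139456017-139456150, plus strand): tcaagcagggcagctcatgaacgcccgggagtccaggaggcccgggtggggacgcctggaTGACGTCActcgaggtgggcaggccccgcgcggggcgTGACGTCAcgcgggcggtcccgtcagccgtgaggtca
FRAT1 (chr10:99078923-99079000, plus strand): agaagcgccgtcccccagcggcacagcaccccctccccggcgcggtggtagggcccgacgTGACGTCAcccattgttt
ZC3H4 (chr19:47617034-47617115, minus strand): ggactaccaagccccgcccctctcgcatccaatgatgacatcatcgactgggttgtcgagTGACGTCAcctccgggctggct
RPS29 (chr14:50053197-50053300, minus strand): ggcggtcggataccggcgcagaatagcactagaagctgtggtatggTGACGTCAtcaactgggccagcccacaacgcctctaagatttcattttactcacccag
These stretches have a GC content of 53.8% to 72.4%, and that of HECA holds 2 copies of the CRE.

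The second set shows the AP-1 element at promoters of genes with known roles: 4 enzymes of the glycolysis list (PFKFB4, which makes the regulator fructose 2,6-bisphosphate, and PKM, ALDOA and HK1), laminin beta 3 (LAMB3), the focal adhesion scaffold BCAR1, the Hippo pathway coactivator YAP1 and the DNA cytidine deaminase APOBEC3B.
PFKFB4 (chr3:48598952-48599019, minus strand): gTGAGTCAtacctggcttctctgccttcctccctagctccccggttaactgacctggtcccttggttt
PKM (chr15:72514888-72515014, minus strand): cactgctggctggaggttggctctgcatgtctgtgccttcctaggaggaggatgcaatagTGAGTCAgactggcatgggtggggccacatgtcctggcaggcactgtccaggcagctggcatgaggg
ALDOA (chr16:30076738-30076864, plus strand): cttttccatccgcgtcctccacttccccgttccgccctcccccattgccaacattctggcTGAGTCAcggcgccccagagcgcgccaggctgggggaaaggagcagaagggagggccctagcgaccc
HK1 (chr10:71076241-71076367, plus strand): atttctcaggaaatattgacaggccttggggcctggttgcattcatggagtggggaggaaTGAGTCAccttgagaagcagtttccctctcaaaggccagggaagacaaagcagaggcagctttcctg
LAMB3 (chr1:209824740-209824846, minus strand): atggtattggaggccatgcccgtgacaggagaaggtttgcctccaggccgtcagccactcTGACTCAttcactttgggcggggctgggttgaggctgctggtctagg
BCAR1 (chr16:75301952-75302029, minus strand): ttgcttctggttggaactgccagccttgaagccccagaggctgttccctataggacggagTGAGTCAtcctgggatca
YAP1 (chr11:101982825-101982951, plus strand): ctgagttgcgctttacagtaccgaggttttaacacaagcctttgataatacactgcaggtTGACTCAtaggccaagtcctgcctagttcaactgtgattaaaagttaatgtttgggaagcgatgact
APOBEC3B (chr22:39378268-39378351, plus strand): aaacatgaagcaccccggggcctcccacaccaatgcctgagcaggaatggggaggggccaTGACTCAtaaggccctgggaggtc
Each of these stretches holds 1 element. The third set shows members with several elements, which were few: LRRC8E (a subunit of the volume-regulated anion channel), BAIAP2 (a membrane-curving adaptor of the actin cytoskeleton), C19orf47, and POGLUT3 (a glucosyltransferase of the endoplasmic reticulum).
LRRC8E (chr19:7958340-7958475, plus strand): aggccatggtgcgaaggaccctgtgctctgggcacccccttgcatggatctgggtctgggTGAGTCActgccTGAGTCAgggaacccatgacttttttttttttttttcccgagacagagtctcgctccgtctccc
BAIAP2 (chr17:79071248-79071378, plus strand): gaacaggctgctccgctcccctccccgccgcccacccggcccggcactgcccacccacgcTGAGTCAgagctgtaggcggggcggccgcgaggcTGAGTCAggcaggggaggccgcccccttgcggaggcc
C19orf47 (chr19:40828284-40828383, minus strand): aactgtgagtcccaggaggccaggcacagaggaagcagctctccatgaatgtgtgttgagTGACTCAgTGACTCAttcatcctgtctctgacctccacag
POGLUT3 (chr11:108368460-108368661, minus strand): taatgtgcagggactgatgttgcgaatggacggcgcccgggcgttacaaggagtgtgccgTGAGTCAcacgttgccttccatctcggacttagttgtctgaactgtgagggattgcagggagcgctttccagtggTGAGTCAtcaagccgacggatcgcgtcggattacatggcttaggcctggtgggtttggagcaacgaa
In C19orf47 a single base separates the 2 elements.

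The rule set the distance of the members from a TSS, so their positions are a description. Of the 407 centres, 203 (49.9%, exact binomial interval 44.9 to 54.8) lay within 250 bp of a TSS, and 137 lay in the 250 bp just upstream. The bin from 250 to 500 bp downstream held 23 and the bin from 1000 to 750 bp upstream held 27. In all, 241 members (59.2%) lay upstream of the TSS. The 323 Fra-2 peaks at promoters that overlapped a Fra-1 peak, called shared promoter peaks, were chosen with the same limit, and no difference in position passed the test, with 48.3% within 250 bp (difference 1.58 percentage points, Newcombe interval -5.70 to 8.83; two-sided Fisher exact test, p = 0.710 adjusted over 4 features) and 62.2% upstream (difference -3.02 points, interval -10.1 to 4.12; exact test, adjusted p = 0.595).

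**Figure D1:**
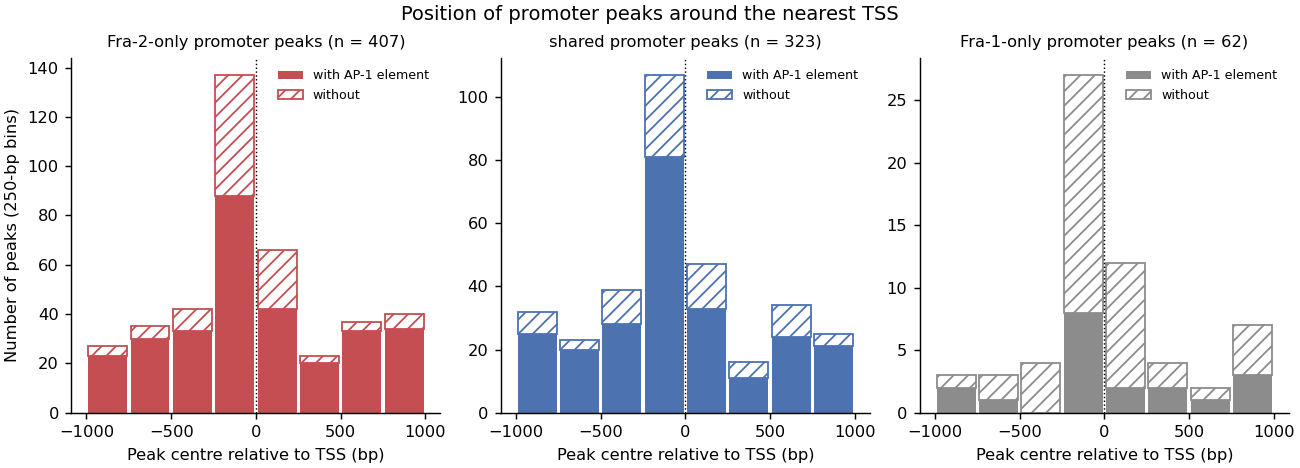
Number of peaks (y axis) by the position of the peak centre relative to the nearest protein-coding TSS (x axis, bp, bins of 250 bp) for 407 Fra-2-only, 323 shared and 62 Fra-1-only promoter peaks; filled bars hold the AP-1 element TGACTCA within 100 bp of the centre and hatched bars do not. The bin just upstream of the TSS is the tallest in each panel (137, 107 and 27 peaks), and the y axes differ.

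Many of these start sites are alternative ones. Of the members, 220 (54.1%) lay within 1 kb of the most 5′ TSS of a gene, and the other 187 lay only near further start sites. The share at the most 5′ TSS was 43.3% of shared and 54.8% of Fra-1-only promoter peaks, without a test. Closeness to alternative start sites is thus not particular to members. In the annotation of the centres, 219 fell in an intron of some transcript, 108 outside protein-coding genes, 68 in untranslated exon sequence and 12 in coding exons. Introns held 53.8% of members and 61.9% of shared promoter peaks. Whether the alternative start sites are used in MDA-MB-231 cells was not measured. Of all members, 60 (14.7%) had the TSS of a long non-coding RNA within 1 kb as well.

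The share of peaks with the AP-1 element differed by less than 1 point between members and shared promoter peaks. TGACTCA stood within 100 bp of the centre, on either strand, in 303 of 407 members (74.45%, 69.9 to 78.6) and in 243 of 323 shared promoter peaks (75.2%, 70.2 to 79.8). The difference was -0.79 points (interval -7.04 to 5.60; two-sided Fisher exact test, p = 1 after adjustment over 14 motifs). For scale, 2.32% of 187616 windows of the same 200 bp tiled over the promoters of all protein-coding genes held it. None of the 14 motifs passed the adjusted threshold of 0.05 in this comparison, while 4 had an unadjusted p under 0.05. These 4 were the AP-1 element variant TGAATCA (8.85% of members against 15.2% of shared peaks; exact test, adjusted p = 0.137), the TEAD consensus GGAATGC or GGAATGT (6.63% against 10.8%; exact test, adjusted p = 0.160), the TATA box (2.70% against 5.88%; exact test, adjusted p = 0.160) and the E2F site TTTCCCGC (7 members, 1.72%, against no shared peak, where the interval reaches 1.14%; exact test, adjusted p = 0.137).

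The peaks compared were of unlike width. Members were narrow: 161 were 100 bp wide, 117 were 150 bp wide and 15 were 300 bp or wider, against 38, 62 and 103 of the shared promoter peaks. By width, the element stood in 62.7% of members and 57.9% of shared peaks at 100 bp, in 77.8% and 56.5% at 150 bp, in 89.5% and 84.7% at 200 bp, in 81.6% and 81.2% at 250 bp and in 80% and 83.5% at 300 bp or wider, a class with 15 members. The share in members was thus the higher one in each width class up to 250 bp and the lower one in the widest, while members were the narrower peaks. The difference was tested at 150 bp, where it was 21.3 points (exact test, adjusted p = 0.0506), and at 200 bp or wider, where it was 2.64 points (exact test, adjusted p = 0.839).

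**Figure D2:**
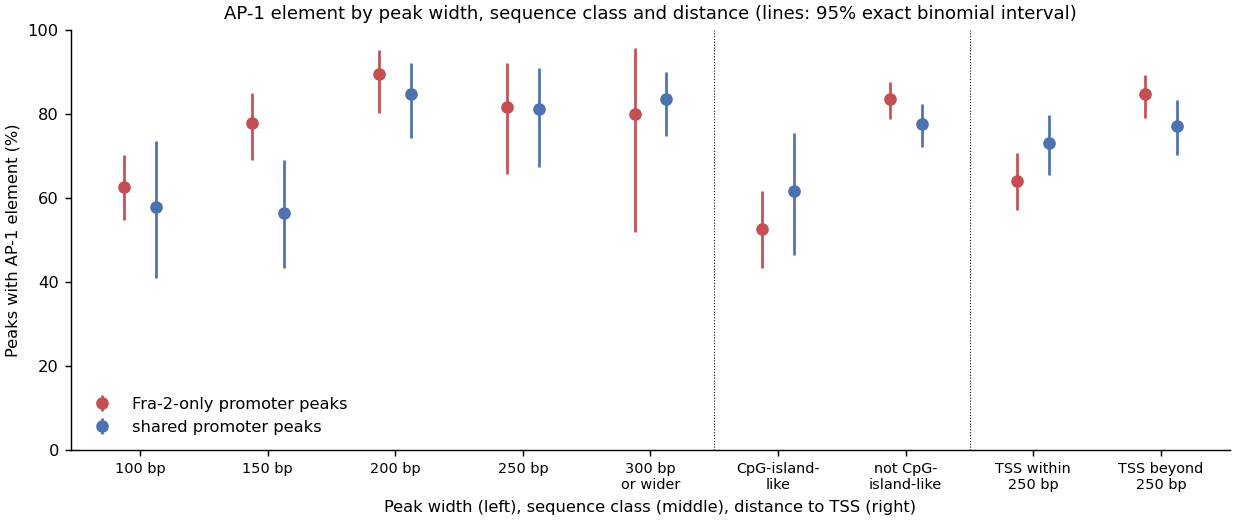
Share of peaks with the AP-1 element within 100 bp of the centre (y axis, %) by peak width, sequence class and distance to the TSS (x axis) for Fra-2-only and shared promoter peaks; points are shares and lines 95% exact binomial intervals. Among Fra-2-only promoter peaks the share is lowest in CpG-island-like sequence, at 52.5%, and highest at 200 bp width, at 89.5%.

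Against Fra-1-only promoter peaks the members held the AP-1 element far more often. It stood in 303 of 407 members (74.45%) and in 19 of 62 Fra-1-only promoter peaks (30.65%, 19.6 to 43.7), so that the share in members was 43.8 points higher (interval 30.7 to 54.6; ratio 2.43; exact test, adjusted p = 6.40e-10). This was the only one of 14 motifs that passed. The Fra-1-only promoter peaks were also narrow, with 35 of 62 at 100 bp; at that width 62.7% of members and 25.7% of Fra-1-only peaks held the element. In CpG-island-like windows, which left 15 Fra-1-only peaks, the shares were 52.5% in members and 26.7% in Fra-1-only peaks and the difference did not pass (exact test, adjusted p = 0.686). The 2 lists were cut at thresholds that are not known, so the strength of the peaks compared cannot be matched.

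CpG-island-like sequence was more frequent in members than in shared promoter peaks. A window of 500 bp around the centre met the usual criteria (GC content of at least 50% and an observed-to-expected CpG ratio of at least 0.6) in 120 members (29.5%, 25.1 to 34.2) and in 47 shared promoter peaks (14.6%, 10.9 to 18.9). The difference was 14.9 points (interval 8.93 to 20.7; ratio 2.03; two-sided Fisher exact test, p = 5.97e-06 adjusted over 4 features). Fra-1-only promoter peaks were nearer to members, with 15 of 62 CpG-island-like (24.2%). Of the 187616 windows tiled over the promoters of all protein-coding genes, 69516 were CpG-island-like. The sequence class is thus not particular to members, and these 2 sets were not tested against them. Among peaks within 1 kb of the most 5′ TSS of a gene the shares were 44.1% of 220 members and 26.4% of 140 shared peaks. Among peaks 150 bp wide the difference was 7.80 points and did not pass (exact test, adjusted p = 0.514). Divergent promoters, where 2 genes start head to head within 1 kb, held 25 members (6.14%) and 10 shared peaks (3.10%; exact test, adjusted p = 0.160).

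Within the members, the AP-1 element and CpG-island-like sequence ran in opposite directions. The element stood in 63 of the 120 CpG-island-like members (52.5%, 43.2 to 61.7) and in 240 of the 287 others (83.6%, 78.8 to 87.7). Both shares were far above those of promoter windows of all genes of the same class, which were 1.18% and 3.00%. The direction was the same in shared promoter peaks (61.7% of CpG-island-like and 77.5% of other peaks). It was also the same in Fra-2-only peaks away from promoters (71.4% and 81.2%). Among members the element stood in 130 of 203 within 250 bp of a TSS (64.0%) and in 173 of 204 beyond (84.8%). These splits were chosen with the values known and are given as descriptions. Of the 120 CpG-island-like members, 89 lay within 250 bp of the TSS, so that both splits share many peaks.

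Where present, the element sat near the middle of the peak. Of the 303 members with it, 173 (57.1%) had a copy within 25 bp of the centre, with a median distance of 23 bp, against 60.1% and 21 bp in shared promoter peaks. In 283 of these 303 members its middle lay inside the called peak itself. Members usually had a single copy: 13 of the 303 had several (4.29%, 2.30 to 7.22), against 47 of 243 shared promoter peaks (19.3%, 14.6 to 24.9) and 358 of 3485 Fra-2-only peaks away from promoters (10.3%, 9.28 to 11.3). Among peaks 200 bp or wider, which hold most of the shared peaks, the shares were 5.41% of 111 members and 22.04% of 186 shared peaks. This count was chosen after its values were seen and was not tested. The bases beside the element, read as TGACTCA, were counted per copy, also without a test. The base before was A or G and the base after T or C in 59.3% of copies in members. This share was 43.9% in shared promoter peaks and 63.5% in Fra-2-only peaks away from promoters, so it was not particular to members.

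**Figure D3:**
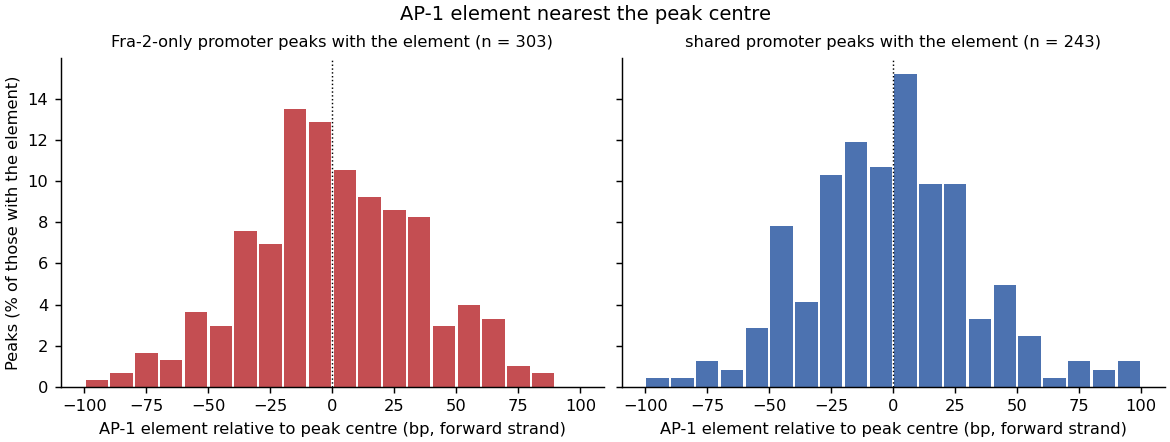
Distance of the AP-1 element nearest the peak centre (x axis, bp along the forward strand, bins of 10 bp) as a share of the peaks with the element (y axis, %) for 303 Fra-2-only and 243 shared promoter peaks. Both distributions are centred on the peak, with 57.1% and 60.1% of nearest elements within 25 bp of the centre.

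Having the element at a promoter seldom went with a peak. Of 9639 copies of TGACTCA within 1 kb of a protein-coding TSS, 297 (3.08%) lay in a member, 316 (3.28%) in a shared promoter peak and 19 (0.197%) in a Fra-1-only promoter peak. Open chromatin in these cells was not measured here.

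The 104 members without the element lay closer to the TSS and more often in CpG-island-like sequence. Of these, 57 (54.8%) were CpG-island-like, 73 (70.2%) lay within 250 bp of a TSS and 60 (57.7%) were only 100 bp wide, against 20.8%, 42.9% and 33.3% of the 303 members with it. Their median distance to the TSS was 147 bp, against 353 bp. The variant TGAATCA stood in 24 of them (23.1%) and the ETS site CCGGAAG in 11 (10.6%), against 3.96% and 1.98% of the members with the element. Of the 57 CpG-island-like ones, 6 held a CRE (10.5%, 3.96 to 21.5), 9 an ETS site (15.8%) and 11 the SP/KLF GC box GGGCGGG (19.3%). In CpG-island-like promoter windows of all genes that lack the AP-1 element the shares were 0.788%, 6.46% and 31.7%. Of the 47 others, 18 held TGAATCA (38.3%, 24.5 to 53.6), against 2.44% of such windows. These shares describe members split after their values were seen, and carry no test.

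The CRE itself was rare, standing in 8 members (1.97%, 0.852 to 3.84) and in 2 shared promoter peaks (0.619%; difference 1.35 points, interval -0.531 to 3.26; exact test, adjusted p = 0.556). Of the 8, 6 lacked an AP-1 element, and all 6 were 100 bp wide, CpG-island-like and centred upstream of a TSS. Their centres lay at -166 bp for HECA, -127 bp for FRAT1, -103 bp for RPS29, -91 bp for the zinc-finger gene ZNF561, -89 bp for the histone H4 gene H4C8 and -18 bp for ZC3H4. The other 2, UNK (an RNA-binding zinc-finger protein) at 314 bp and EML2 (a microtubule-associated protein) at 443 bp, held an AP-1 element too. Of the 9 copies of the CRE in these 8 members, 5 had their middle inside the called peak. In FRAT1, ZNF561 and UNK the only copy lay outside it, within 100 bp of the centre.

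Compared with the 4296 Fra-2-only peaks away from promoters, 9 of the 14 motifs passed, 6 of them higher in members and 3 lower. The rule put members near a TSS and the distant peaks away from one. The contrast therefore also sets promoter DNA against other DNA, and the tests cannot separate this from Fra-2 binding. The SP/KLF GC box stood in 9.83% of members and 2.44% of the distant peaks (difference 7.38 points, interval 4.81 to 10.7; ratio 4.02; two-sided Fisher exact test, adjusted p = 1.36e-10). The ETS site stood in 4.18% and 1.14% (exact test, adjusted p = 0.000135), the E2F site in 1.72% and 0.303% (exact test, adjusted p = 0.00277), the E-box CACGTG in 6.39% and 3.21% (exact test, adjusted p = 0.00511), the YY1 core ATGGCGGC in 0.983% and 0.163% (exact test, adjusted p = 0.0174) and the CRE in 1.97% and 0.629% (exact test, adjusted p = 0.015). Lower in members were the TATA-like TATAAA, at 2.70% against 8.75% (exact test, adjusted p = 1.96e-05), TGAATCA, at 8.85% against 15.4% (exact test, adjusted p = 0.00086), and the AP-1 element, at 74.45% against 81.1% (exact test, adjusted p = 0.00379). The 5 that did not pass were the NRF1 core (0.491% of members and 0.349% of distant peaks; exact test, adjusted p = 0.734), the NF-Y box (4.42% and 4.56%; exact test, adjusted p = 1), the ZNF143 core (1.23% and 1.68%), the TEAD consensus (6.63% and 8.94%) and the RUNX consensus (5.90% and 6.73%). Promoter windows of all genes gave a further scale for the 6 motifs higher in members. Their shares there were 14.5% for the GC box, 3.21% for ETS, 0.781% for E2F, 3.42% for the E-box, 1.04% for YY1 and 0.389% for the CRE. Members were below these windows for the GC box and YY1 and above them for the others, without a test. For the 3 motifs lower in members the windows gave 8.4% for TATAAA, 1.77% for TGAATCA and 2.32% for the AP-1 element. Members were below the windows for TATAAA and above them for TGAATCA and the AP-1 element, again without a test. Base composition moved with the differences from distant peaks: the median GC content was 55% in members and 46.2% in distant peaks, and 29.5% against 0.815% were CpG-island-like. In windows that were not CpG-island-like the AP-1 element stood in 83.6% of members and 81.2% of distant peaks (exact test, adjusted p = 0.800), so the direction of that difference turned. There 4 motifs passed, each in its former direction. They were TATAAA (-5.665 points, exact test, adjusted p = 0.00378) and TGAATCA (-6.08 points, exact test, adjusted p = 0.0167). The GC box (3.58 points) and the E-box (3.82 points) also passed (exact tests, adjusted p = 0.00873 for each). The CRE difference turned in both sequence classes, to -2.74 points in CpG-island-like windows and -0.215 points in other windows, and at 150 bp width, to -0.962 points. The ETS difference turned to -0.0577 points in other windows. In CpG-island-like windows, with 35 distant peaks, none of the 14 passed, and the E-box turned to -6.43 points and TGAATCA to 4.64 points. The YY1 core turned to -0.172 points at 200 bp or wider, and the E2F site to -0.370 points at 150 bp. Among peaks 200 bp or wider, which left 129 members, none of the 14 passed.

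**Figure D4:**
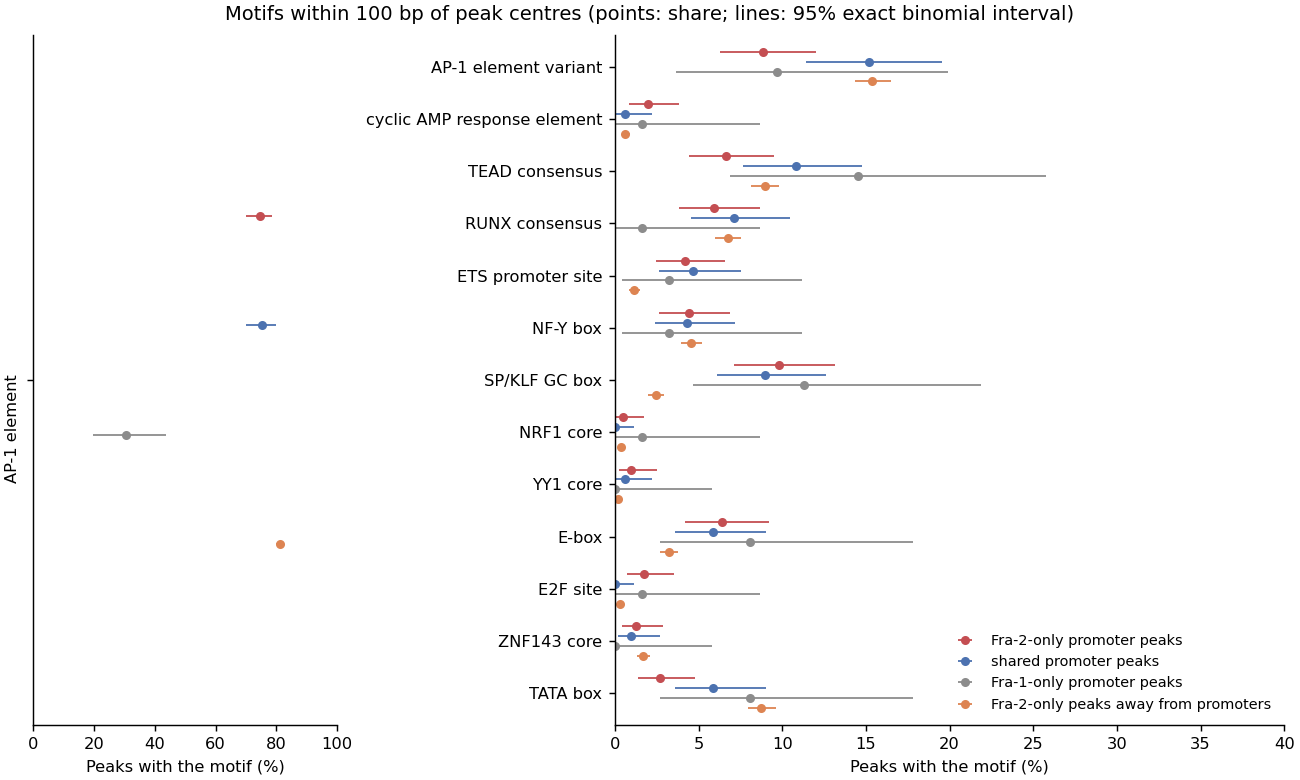
Share of peaks (x axis, %) with each of 14 motifs (y axis) within 100 bp of the centre in Fra-2-only promoter peaks, shared promoter peaks, Fra-1-only promoter peaks and Fra-2-only peaks away from promoters; points are shares and lines 95% exact binomial intervals, and the x axes of the panels differ. The AP-1 element stands in 74.45%, 75.2%, 30.65% and 81.1%, and the SP/KLF GC box in 9.83%, 8.98%, 11.3% and 2.44%.

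Together the members lay within 1 kb of a TSS of 430 of 18765 protein-coding genes, or 2.29%, and the shared promoter peaks of 305 genes, or 1.63%. Of the 430 genes, 28 also had a shared promoter peak and 3 had a Fra-1-only promoter peak, which 67 of the 18765 genes had. There were 22 genes with 2 members within 1 kb of a TSS. Among them were LAMB3, SPHK1 (sphingosine kinase 1), HDAC7 (a histone deacetylase), NDRG1, TUBB3 (neuronal beta tubulin) and SEPTIN9. Across chromosomes, chromosome 5 had 3.56 members per 100 genes and chromosome 18 had 0.394, from 31 members and 1 member.

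The rule does not bar Fra-1 peaks farther away. The nearest Fra-1 peak lay at a median of 77.5 kb, and within 10 kb of 65 members (16.0%). A Fra-1 peak stood within 100 kb of 57.0% of the 430 genes, against 44.6% of all protein-coding genes. SEPTIN9, a cytoskeletal GTPase, had 12 Fra-2 and 7 Fra-1 peaks within 100 kb of the member. By contrast HECA, FRAT1 and APOBEC3B had no Fra-1 peak within 100 kb, and the member was the only Fra-2 peak there.

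Of 33 lists of genes grouped by function, glycolysis and hypoxia had the most genes with a member, 5 of the 19 measured (26.3%), against 2.29% of all protein-coding genes. In the same list 2 genes (PKM and SLC16A3, the lactate exporter) had a shared promoter peak. The peaks at the enzyme genes all held the AP-1 element, which 74.45% of all members held. So few peaks cannot show a difference from that share. At ENO1 (enolase 1) the centre lay 34 bp upstream of a TSS and the element at -2 bp, in a peak 150 bp wide. PKM (pyruvate kinase) had its element at -79 bp from a start site, at the very centre of a peak 100 bp wide. ALDOA (aldolase A) had it at -280 bp, again at the centre of a peak 100 bp wide. In PFKFB4 the peak was 300 bp wide and the element lay at -410 bp. In HK1 (hexokinase 1) the peak was centred 760 bp downstream of a start site. Of the 5, the PFKFB4 peak alone was within 1 kb of the most 5′ TSS of a gene; the others lay at alternative start sites inside the annotated gene. A second Fra-2-only peak of ENO1 lay just outside the rule, at 1002 bp.

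Apoptosis and survival came next, with 4 of 20 genes (20%), against 2.29% of all protein-coding genes. No gene of this list had a shared promoter peak. As only 1.63% of all protein-coding genes had one, a list of 20 genes is too short to show a lack of them. CASP8, the initiator caspase of death receptors, had a peak 250 bp wide centred 2 bp downstream of a TSS, with the element at -14 bp. BAD, a BH3-only killer protein, had a peak 250 bp wide centred at 564 bp, with the element at 488 bp. This peak lies in repeat sequence with long runs of GT. It holds 2 copies of the element, of which 1 lies within 100 bp of the centre. MCL1, a survival protein of the BCL2 family, had a peak 100 bp wide at 905 bp, with the element just outside the peak. BBC3, which encodes the p53 target PUMA, had a peak 100 bp wide at -128 bp without the element, and was the only one of the 4 within 1 kb of the most 5′ TSS of a gene. The lists were drawn up with earlier results of these data known, so their counts are descriptions.

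**Figure D5:**
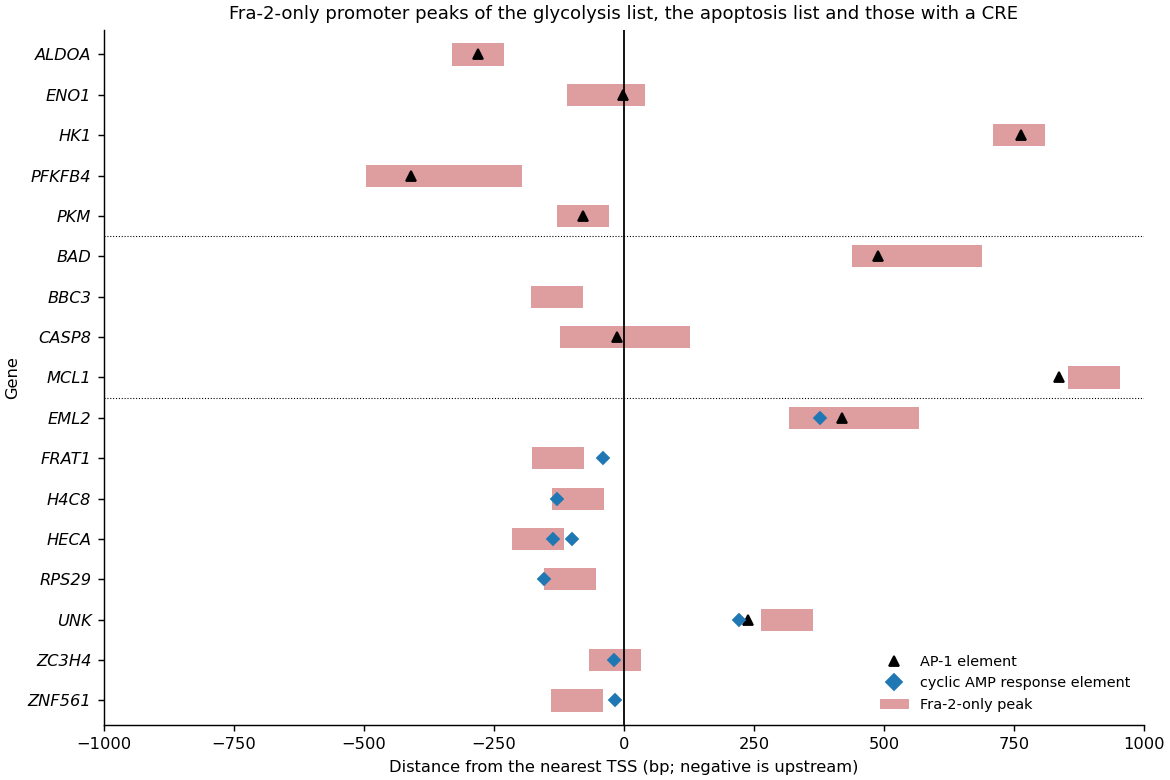
Fra-2-only promoter peaks (bars) of 5 genes of the glycolysis list, 4 of the apoptosis list and the 8 members with a CRE (y axis), drawn to scale by distance from the nearest TSS (x axis, bp, negative upstream); triangles mark AP-1 elements and diamonds CREs within 100 bp of the centre. All 5 peaks of the glycolysis list hold an AP-1 element, as do 74.45% of all members. The 6 CRE members without one are centred 18 to 166 bp upstream of the TSS.

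The remaining lists held 2 genes with a member (7 lists), 1 (16 lists) or none (8 lists). Over all lists 39 of 704 distinct genes measured (5.54%) had one. The lists with none were immediate-early genes, the unfolded protein response, proteases, splicing, mitochondrial respiration, cholesterol synthesis, and hepatocyte and blood cell markers. These lists had 19 to 24 measured genes each. With 2.29% of all protein-coding genes having a member, lists of this size are too short to show a lack of members. The genes named next are the few with a member in their lists. These were 2 of 20 TGF-beta and SMAD genes and 1 of 20 mesenchymal genes. They were also 2 of 24 genes of the EGFR, RAS and MAPK list and 2 of 26 of the cell cycle list. TGFBR2, the type II TGF-beta receptor, had its element at -3 bp from the TSS in a CpG-island-like peak 200 bp wide. ACVR1, an activin-type receptor, had a member at -312 bp, and SPARC, a matricellular protein, one at 190 bp. ERBB3 (a receptor of the EGFR family) and SPRED2 (an inhibitor of RAS signalling) had members centred at -70 bp and -117 bp. CDKN1A, the cell-cycle inhibitor p21, had one at 728 bp with an AP-1 element and a TEAD consensus, and RBL1, a relative of the retinoblastoma protein, one at -151 bp with neither. In the AP-1 family list ATF3 was the 1 gene of 20 with a member, 302 bp upstream of a start site and without an AP-1 element. FOSL1, FOSL2 and MAFG of that list had shared promoter peaks. Of the 23 genes of the YAP and TEAD list, 1 had a member, YAP1 itself at -344 bp, and 4 other genes had shared promoter peaks.

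In the list of basal keratins and laminins 2 of 20 genes had a member, LAMB3 (with 2) and SFN (14-3-3 sigma). Of all protein-coding genes 2.29% had one, and counts this small cannot show a trait of a cell type. In LAMB3 one peak was 300 bp wide at -12 bp with its element at -44 bp, and the other 200 bp wide at -731 bp with its element at -722 bp beside a TEAD consensus. SFN had a peak 200 bp wide at -189 bp with TGAATCA and no AP-1 element. KRT8, a luminal keratin, was the 1 gene of 19 in the luminal list with a member, and it had a shared promoter peak too. The neuron list had 2 of 18 genes with a member, TUBB3 with 2 peaks and DLG4, a scaffold of synapses. The DLG4 peak is centred 4 bp from the TSS of its neighbour ACADVL, an enzyme of fatty acid oxidation.

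The widest members, at 350 bp, were those of SLC6A6 (a taurine transporter), RPH3AL (a RAB effector of exocytosis) and RAB5B (an early endosome GTPase), of which SLC6A6 held an AP-1 element and RPH3AL the variant TGAATCA. The stress-responsive gene NDRG1 had 3 elements in a peak 300 bp wide, the most of any member. In CCDC85C, P2RY6 (a nucleotide receptor) and SYNPO (an actin-binding protein of podocytes) the element lay at the annotated TSS itself.

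At the edges of the rule, 9 members were centred 950 to 1000 bp from a TSS, of which 8 held the AP-1 element, and 11 Fra-2-only peaks lay up to 50 bp beyond the limit, of which 9 held it. A Fra-1 peak lay within 100 bp of 6 members (CTNNA1, PLEC, AHNAK, CIRBP, FBXO46 and SBK3), of which 5 held the element. The 2 promoter Fra-2 peaks left out for sharing only 50 bp with a Fra-1 peak were at LMNA and YOD1.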

How the data were processed

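ChIP-seq peaks of Fra-2 and Fra-1 in MDA-MB-231 cells were used as the authors deposited them, with 1 list per antibody. The other values in these files are the start and end of each peak on a grid of 50 bp; the authors gave no count or score. Per the submitters' processing notes, Bowtie2 and build hg19 were used. Peak caller, threshold and handling of replicates and input: not given in the sources used here. Depth is unknown, and the input was left out.

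The members, gene lists and motifs were chosen with earlier results of these data known. TSSs came from GENCODE 44 lifted to GRCh37 and sequences from the GRCh37 FASTA. An overlap of 1 bp made a peak shared. Both strands of the 200 bp around each centre were scanned for 14 motifs, none of which contains another: those spelled out above and RUNX (TGTGGTT or TGCGGTT), NF-Y (CCAATCA or CCAATGA), NRF1 (GCATGCGC) and ZNF143 (ACTACAA). CpG-island-like sequence was judged in 500 bp. Shares were compared with two-sided Fisher exact tests and Benjamini-Hochberg adjustment over 14 motifs or 4 position features, with Clopper-Pearson intervals for shares and Newcombe intervals for differences. Named genes were the widest members, those with a CRE, with several AP-1 elements or nearest to a TSS, up to 4 per list, members at the limits of the rule and those with the most Fra-2 peaks nearby; HK1 and the genes with 2 members were added after their values were seen. Everything ran in Python 3.11.15 with numpy 2.4.6, pandas 2.3.3, scipy 1.17.1 and matplotlib 3.10.9, and was tested on simulated data. Alternatives changed overlap, promoter size, TSS choice, width, motif window, sequence class and the treatment of assembly gaps.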

Additional observations from a re-analysis of the deposited data

How the results depend on the processing

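Of 268 alternative values, 199 kept their direction and side of the threshold, or stayed within 1.5 times for counts. No paired analysis was possible because each antibody has 1 peak list, and for the same reason no replicate could be left out. Values are differences in percentage points, members minus the other peaks, and the cause of each change was not tested.

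The AP-1 difference from shared promoter peaks turned to 5.47 with promoters of 2 kb, 2.64 in peaks of at least 200 bp, 21.3 in peaks 150 bp wide and 6.09 outside CpG-island-like windows. From Fra-1-only promoter peaks it was 25.8 in CpG-island-like windows (exact test, adjusted p = 0.686), with few peaks left. From distant Fra-2-only peaks it no longer passed with promoters of 2 kb (-1.72), at 200 bp or wider (-3.13), at 150 bp (-4.77), with regions near assembly gaps kept (-3.55) and in CpG-island-like windows (-18.9), and turned to 2.42 in other windows. The CRE difference turned to -0.0139 against shared peaks (other windows), to -0.214 (most 5′ TSS) and -0.833 (CpG-island-like) against Fra-1-only peaks, and to -0.962 (150 bp), -2.74 (CpG-island-like) and -0.215 (other windows) against distant peaks. Against distant peaks, turns were also seen for TGAATCA (4.64) and the E-box (-6.43) in CpG-island-like windows, ETS (-0.0577) in other windows, YY1 at 200 bp or wider (-0.172) and within 50 bp of the centre (-0.116), and E2F at 150 bp (-0.370).

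At 150 bp width the share within 250 bp of a TSS turned to -7.83 and the CpG-island-like difference fell to 7.80 (exact test, adjusted p = 0.514). The divergent difference was 5.25 with promoters of 500 bp (exact test, adjusted p = 0.0439). The number of motifs that passed against shared peaks was 1, not 0, with promoters of 2 kb, a motif window of 150 bp or motifs in the peak as called. Against Fra-1-only peaks it was 2, 2 and 0 with promoters of 2 kb, a window of 150 bp and CpG-island-like windows only. Against distant peaks it was 0 at 200 bp or wider, 1 at 150 bp, 5 within 50 bp of the centre, 0 in CpG-island-like windows and 4 in others, where fewer peaks were tested in all but the change of window. The number of members was 268 with promoters of 500 bp, 611 with 2 kb, 220 with the most 5′ TSS only and 129 at 200 bp or wider.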
